A study of Mus musculus with 13 samples.

Results

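The genes described here are 10 transcriptional outputs and feedback regulators of the MAPK pathway, namely Dusp4, Dusp6, Spry2, Spry4, Spred1, Spred2, Etv1, Etv4, Etv5 and Phlda1. They were taken by symbol from a table of raw read counts for 54532 genes, and all 10 were found. The cells were YUMM1.7, a mouse melanoma cell line described in the labels as WT in genotype. YUMM lines come from mouse melanomas driven by activated Braf with loss of Cdkn2a, so every group described here shares that background. Total RNA was sequenced from cells given DMSO as the vehicle control, from cells given 10 µM ADAR1i-124 for 12 h and from cells given 1 µM 5-AZA-CdR for 72 h. ADAR1i-124 is a small-molecule inhibitor of RNA editing by ADAR1, and 5-AZA-CdR (5-aza-2'-deoxycytidine) is a cytidine analogue that traps DNA methyltransferases and lowers DNA methylation. The single agents therefore differed in exposure time as well as in kind. RNA of cells given DMSO, either agent or both was also digested and precipitated with J2, an antibody to double-stranded RNA, or with Z22, an antibody to Z-form nucleic acid. One IgG precipitation served as the antibody control. For the combination, 5-AZA-CdR at 1 µM came first, for 72 h, and ADAR1i-124 at 10 µM was then added for 12 h, a scheme taken from the study's own description since the labels give no dose there. The study also combined 5-AZA-CdR with ADAR1i-124 at 1 µM, and does not state the dose behind each precipitated library of the combination. Which of these treatments the IgG sample had received was not given.

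Each condition was a single library, so no difference below has a replicate check and no p-value is given. The intervals are exact 95% intervals that cover counting error only. The 12 libraries used held 8167960 to 34571822 counts. A level is given as CPM, the counts scaled to 1e6 per library total. A 13th library, total RNA of the combination, held 1245894 counts, of which the 10 genes took 0 to 50 each. It was left out because its counts followed the opposite strand, and the combination was therefore seen in precipitated RNA alone. The 10 genes had 116 to 11399 counts each in the other 12 libraries, far above 3 counts, the limit that a count of 0 would allow. The cell line's own markers were mixed. Mitf, the master factor of melanocytes, was at 9.68 to 33.1 CPM, whereas Sox10, Dct, Tyr, Tyrp1 and Mlana were at or near 0. Cdkn2a was at 0.13 to 2.21 CPM and Braf at 115 CPM in the DMSO total RNA.

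Growth factor receptors activate Ras, Raf, MEK and ERK in turn, and active ERK induces a set of genes that restrain the same pathway. The dual-specificity phosphatases Dusp4 and Dusp6 remove phosphate from ERK and its relatives, Sprouty proteins dampen signalling downstream of receptors, and Spred proteins bring the Ras inactivator neurofibromin to the membrane. Etv1, Etv4 and Etv5 form the PEA3 group of ETS transcription factors, and Phlda1 is a pleckstrin homology-like protein counted among MAPK output genes. In melanoma with activated Braf these transcripts are commonly read together as a measure of pathway output.

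Divided by exon length, the levels of the 10 genes in DMSO total RNA ran from 9.57 to 40.1 CPM per kb. Spred1 had the highest level, at 40.1 CPM per kb of exon (95% counting interval 38.9 to 41.2). Dusp6 at 29.7, Etv4 at 28.4 and Spred2 at 26.5 CPM per kb came next, and Dusp6 overlapped Etv4, and Etv4 overlapped Spred2, in their counting intervals. Phlda1 at 22.4 and Etv5 at 21.9 CPM per kb could not be told apart at this depth. Spry2 at 16.3, Spry4 at 14.9 and Etv1 at 13.8 CPM per kb followed, each overlapping its neighbour. Dusp4 was lowest, at 9.57 CPM per kb (8.70 to 10.5). With ADAR1i-124 the order opened with Phlda1 at 70.9 CPM per kb and Dusp4 at 38.5 CPM per kb, and closed with Etv5 at 9.02 and Etv1 at 2.54 CPM per kb. With 5-AZA-CdR it opened with Dusp6 at 78.6 CPM per kb and closed again with Etv5 at 20.6 and Etv1 at 15.5 CPM per kb. These levels depend on the exon length of the annotation, which for Etv1 was 13296 bases against 2087 for Spry2.

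**Figure D1:**
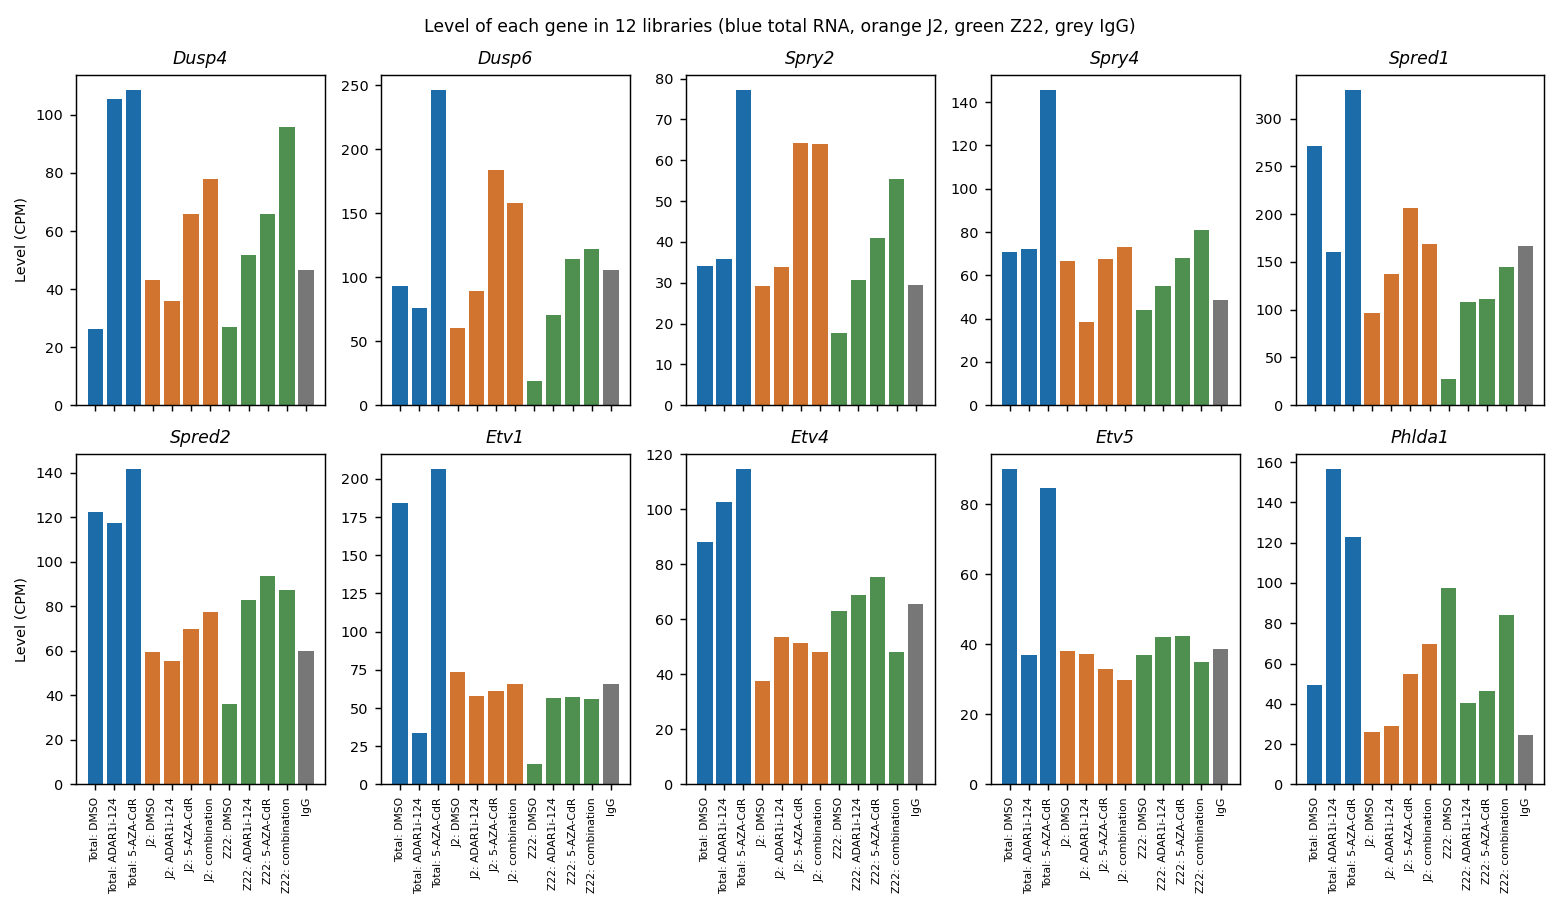
Level of each of the 10 genes in CPM (y axes start at 0 and differ between panels) in 12 single libraries along the x axis, with total RNA in blue, J2 in orange, Z22 in green and IgG in grey. Each bar is 1 library, and 8 of the 10 genes have their tallest bar in the total RNA of cells given 5-AZA-CdR.

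Because 5-AZA-CdR acts on CG methylation, the start sites of a few of these genes are shown, with each CG pair in capitals. The windows are RefSeq sequences of GRCm38.p6 that run from 250 bases before to 50 bases after a start, and 6 of the 10 genes had one among the sequences used here. Dusp6 and Spry2 are printed because both were over 2-fold higher with 5-AZA-CdR in total RNA, and Etv1 and Etv5 because neither was.
Dusp6, chr10:99262981-99263280, plus strand: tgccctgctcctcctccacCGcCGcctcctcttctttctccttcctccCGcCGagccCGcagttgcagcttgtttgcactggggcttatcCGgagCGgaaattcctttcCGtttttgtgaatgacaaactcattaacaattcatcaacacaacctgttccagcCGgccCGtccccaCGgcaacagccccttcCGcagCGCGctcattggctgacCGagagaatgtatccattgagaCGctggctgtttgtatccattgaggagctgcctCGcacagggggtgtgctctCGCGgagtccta
Spry2, chr14:105896770-105897069, minus strand: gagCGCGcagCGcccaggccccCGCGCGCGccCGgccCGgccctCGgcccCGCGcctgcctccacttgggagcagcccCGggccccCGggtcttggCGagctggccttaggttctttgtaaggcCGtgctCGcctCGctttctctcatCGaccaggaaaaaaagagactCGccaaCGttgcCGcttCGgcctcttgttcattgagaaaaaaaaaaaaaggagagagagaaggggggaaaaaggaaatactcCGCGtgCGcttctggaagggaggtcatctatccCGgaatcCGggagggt
Etv1, chr12:38779832-38780131, plus strand: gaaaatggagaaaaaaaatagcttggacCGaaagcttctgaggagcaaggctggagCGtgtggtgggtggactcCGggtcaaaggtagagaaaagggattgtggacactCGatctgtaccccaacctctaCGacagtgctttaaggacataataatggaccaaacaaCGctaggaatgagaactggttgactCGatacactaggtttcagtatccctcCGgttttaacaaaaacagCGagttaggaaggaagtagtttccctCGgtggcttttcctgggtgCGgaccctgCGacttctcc
Etv5, chr16:22439521-22439820, minus strand: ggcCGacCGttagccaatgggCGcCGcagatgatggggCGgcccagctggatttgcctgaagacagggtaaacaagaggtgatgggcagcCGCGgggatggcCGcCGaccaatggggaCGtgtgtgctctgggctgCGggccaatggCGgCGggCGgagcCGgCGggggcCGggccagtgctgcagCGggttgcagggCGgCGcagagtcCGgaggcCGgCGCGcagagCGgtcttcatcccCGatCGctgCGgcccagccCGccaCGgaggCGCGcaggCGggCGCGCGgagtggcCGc
The Dusp6 window held 19 CG pairs and that of Spry2 held 28. Etv1 and Etv5 had 2 windows each, of which the one with more CG pairs is printed, with 12 and 3 pairs for Etv1 and 37 and 19 for Etv5. The windows of Spred1 and Spred2 held 40 and 17. The median of all 32851 windows was 7. The methylation of these windows was not measured here. The ETS core GGAA, searched on both strands, was in 7 of the 8 windows used and in 96.0% of all windows. The longer CCGGAA, which contains that core, was among these 8 in the Spry2 window alone, and in 14.9% of all windows. The AP-1 motif TGACTCA and the CRE motif TGACGTCA were in 0 of the 8, and in 5.20% and 1.79% of all windows.

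In total RNA, ADAR1i-124 left the 10 genes split. Dusp4 and Phlda1 were over 2-fold higher than with DMSO, Etv1 and Etv5 over 2-fold lower, and the other 6 lay within 2-fold. The genes tested were those averaging 1 CPM or more in the libraries compared. Of these 13693 genes, 7.71% were higher and 8.70% lower by 2-fold or more. The median log2 change was -0.02 for the 10 genes and -0.09 for all genes. With 5-AZA-CdR, 5 of the 10 were over 2-fold higher (Dusp4, Dusp6, Phlda1, Spry2 and Spry4) and 0 lower. The shares of the 14391 genes tested were 17.0% higher and 8.96% lower. The median log2 change was 0.70 for the 10 genes and 0.06 for all genes. Both comparisons used the same DMSO library. All changes are on the log2 scale of CPM plus 0.5. In such bulk samples, fewer cells expressing a gene and less RNA per cell cannot be told apart.

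The phosphatases differed. Dusp4, a nuclear phosphatase of ERK (GRCm38 chr8:34807297-34819894, plus strand), was at 26.2 CPM with DMSO, 105 with ADAR1i-124 and 108 with 5-AZA-CdR. It was 3.96-fold higher with ADAR1i-124 (log2 change 1.99, 1.86 to 2.16) and 4.08-fold higher with 5-AZA-CdR (2.03, 1.91 to 2.19). The library totals differed, and the counts behind these levels were 446, 1857 and 3750. Dusp6, the cytoplasmic ERK phosphatase (chr10:99263231-99267489, plus strand), was at 93.2 CPM with DMSO, 75.9 with ADAR1i-124 and 246 with 5-AZA-CdR. It was thus 1.23-fold lower with ADAR1i-124 (log2 change -0.29, -0.40 to -0.19) and 2.63-fold higher with 5-AZA-CdR (1.40, 1.32 to 1.48). Dusp4 was high under both agents, and Dusp6 under 5-AZA-CdR alone.

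Spry2 and Spry4, which encode Sprouty proteins, behaved alike in total RNA. Spry2 (chr14:105891947-105896819, minus strand) was at 34.1 CPM with DMSO, 35.9 with ADAR1i-124 and 77.1 with 5-AZA-CdR. Spry4 (chr18:38586247-38601415, minus strand) was at 71.0, 72.4 and 145 CPM in the same order. For both, the interval of the change with ADAR1i-124 included 0, from -0.09 to 0.24 for Spry2 and from -0.09 to 0.14 for Spry4. With 5-AZA-CdR, Spry2 was 2.24-fold higher (log2 change 1.17, 1.05 to 1.31) and Spry4 2.04-fold higher (1.03, 0.94 to 1.13). The value for Spry4 sat on the 2-fold line and was 0.97 after scaling by TMM factors and 0.95 after DESeq2 size factors.

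The Spred genes, by contrast, stayed within 2-fold under both agents. Spred1 (chr2:117121374-117182279, plus strand) was at 272 CPM with DMSO, 161 with ADAR1i-124 and 330 with 5-AZA-CdR, that is 1.69-fold lower with the first (log2 change -0.76, -0.82 to -0.69) and 1.21-fold higher with the second (0.28, 0.23 to 0.33). Spred2 (chr11:19924375-20024026, plus strand) was at 122, 117 and 142 CPM. Its log2 change was -0.06 with ADAR1i-124, an interval that included 0, and 0.21 with 5-AZA-CdR (0.14 to 0.28).

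Within the PEA3 group, Etv1 and Etv5 were low with ADAR1i-124 and Etv4 was not. Etv1 (chr12:38779380-38870484, plus strand) was at 184 CPM with DMSO, 33.7 with ADAR1i-124 and 206 with 5-AZA-CdR. It was 5.39-fold lower with ADAR1i-124 (log2 change -2.43, -2.58 to -2.32), the largest change of the 10 genes in either direction. Etv5 (chr16:22381309-22439719, minus strand) was at 89.9, 37.0 and 84.5 CPM, and was 2.41-fold lower with ADAR1i-124 (-1.27, -1.41 to -1.15). Etv4 (chr11:101769742-101785371, minus strand) was at 88.2, 103 and 114 CPM, with a log2 change of 0.22 (0.12 to 0.32). With 5-AZA-CdR the changes of all 3 were small, at 0.16 for Etv1, 0.37 for Etv4 and -0.09 for Etv5.

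Phlda1 (chr10:111506286-111508645, plus strand) was at 49.4 CPM with DMSO, 156 with ADAR1i-124 and 123 with 5-AZA-CdR. It was 3.14-fold higher with ADAR1i-124 (log2 change 1.65, 1.55 to 1.77) and 2.47-fold higher with 5-AZA-CdR (1.30, 1.20 to 1.42), which set it beside Dusp4 as a gene high under both agents. Phlda1 overlaps Gm28592, an annotated gene on the opposite strand, which had 0 to 4 counts in each of the 12 libraries.

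**Figure D2:**
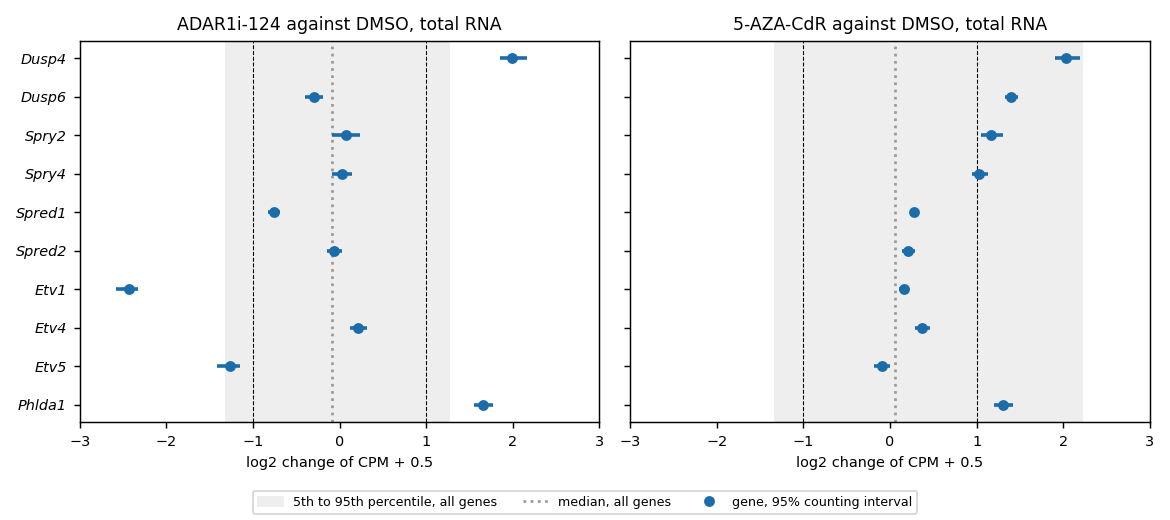
log2 change of each of the 10 genes (rows) in total RNA against DMSO, with ADAR1i-124 on the left and 5-AZA-CdR on the right, where points are single comparisons and bars their 95% counting intervals. The grey band spans the 5th to 95th percentile of all genes, the dotted line is their median, and the dashed lines mark 2-fold. Dusp4 at 1.99 and Etv1 at -2.43 lie outside the band on the left, as does Phlda1 at 1.65, and all 10 genes lie inside it on the right.

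Set directly against each other, the agents differed most for Etv1. With 5-AZA-CdR, 6 of the 10 genes were higher than with ADAR1i-124 by 2-fold or more and 0 lower, beside 17.8% and 7.54% of the 14400 genes tested. Etv1 was 6.04-fold higher (log2 change 2.59, 2.49 to 2.74), Dusp6 3.23-fold (1.69, 1.61 to 1.78) and Etv5 2.27-fold (1.18, 1.07 to 1.32). Spry2 at 1.09, Spred1 at 1.03 and Spry4 at 1.0 were close to the 2-fold line, and under TMM factors they were at 0.98, 0.92 and 0.89, which left 3 genes past it. For Dusp4 the agents gave almost the same level, with a log2 difference of 0.04 (-0.04 to 0.12). Phlda1 was the 1 gene of the 10 that was lower with 5-AZA-CdR than with ADAR1i-124, at -0.35 (-0.42 to -0.28).

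Markers of other cell types differed between the same total RNA libraries. The 3 fibroblast markers (Col1a1, Dcn and Pdgfra) summed to 324 CPM with 5-AZA-CdR, 28.9 CPM with ADAR1i-124 and 9.52 CPM with DMSO. In the same order Dcn was at 129, 0 and 0.41 CPM, Col1a1 at 44.0, 3.58 and 3.88 CPM, and Pdgfra at 150, 25.4 and 5.23 CPM. Of the 3, Pdgfra alone was thus above DMSO with ADAR1i-124. The 2 endothelial markers (Pecam1 and Cdh5) summed to 82.7, 18.2 and 4.06 CPM, mostly from Cdh5 at 81.1, 17.8 and 3.70 CPM. The 3 epithelial markers summed to at most 2.05 CPM. The 5 leukocyte markers summed to at most 1.65 CPM. The part of these markers in the values of the 10 genes was not tested.

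The rest of the pathway was read from 3 lists, which were chosen with earlier results of these data known. The first list held 32 receptors, adaptors, Ras proteins, regulators of Ras and kinases, among them Nf1, the gene of the Ras inactivator neurofibromin. Of these, 29 passed the filter on low values in each comparison of total RNA with DMSO. With ADAR1i-124, 1 of the 29 was over 2-fold higher and 1 over 2-fold lower, beside 7.71% and 8.70% of all genes, with a list median of 0.03. The gene that was higher was Pdgfra, the alpha receptor for platelet-derived growth factor, at 25.4 CPM against 5.23 with DMSO (log2 change 2.17, 1.95 to 2.62). With J2 and the same agent Pdgfra lay the other way, at 4.17 CPM against 43.2 (-3.23 relative to all genes), and with Z22 it was at -0.73. The gene that was lower was its partner Pdgfrb, the beta receptor, at 30.6 CPM against 169 (-2.45, -2.60 to -2.33). With 5-AZA-CdR, 3 of 29 were higher and 0 lower, beside 17.0% and 8.96% of all genes, with a list median of 0.04. Pdgfra, which is also one of the fibroblast markers, was at 150 CPM (4.72, 4.54 to 5.17), and at -2.01 with J2 and -1.78 with Z22 relative to all genes. Rps6ka1, which encodes the ERK-activated kinase RSK1, was at 40.6 CPM against 16.7 (1.26, 1.10 to 1.47). Egfr, the receptor for epidermal growth factor, was at 37.9 CPM against 15.8 (1.23, 1.07 to 1.45). Relative to all genes, Egfr was at -0.31 (-0.61 to -0.03) with J2 and -0.04 with Z22, and Rps6ka1 at 0.68 and 1.15. The list medians were -0.06 with J2 and -0.002 with Z22 after ADAR1i-124, and 0.14 and 0.08 after 5-AZA-CdR.

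Close relatives of the 10 genes lay on both sides of DMSO. With ADAR1i-124, 3 of 17 that passed the filter were over 2-fold higher and 1 lower, beside 7.71% and 8.70% of all genes, with a list median of 0.46. Dusp5, a nuclear phosphatase specific for ERK, was at 125 CPM against 15.0 with DMSO (log2 change 3.01, 2.87 to 3.25). Dusp1, a stress-induced phosphatase, was at 149 CPM against 57.8 (1.36), and Erf, a repressor of the ETS family, at 76.4 CPM against 36.3 (1.06). Spry1, another Sprouty gene, was at 0.91 CPM against 3.53 (-1.52, -2.85 to -1.14), which rests on 16 and 60 counts. With 5-AZA-CdR, 5 of 18 were higher and 2 lower, beside 17.0% and 8.96% of all genes, with a list median of 0.36. Dusp5 was again high, at 86.0 CPM (2.48). Spry1 was again low, at 1.10 CPM (-1.33, -2.31 to -1.07), opposite to Spry2 and Spry4. Dusp2, another nuclear phosphatase, was at 17.6 CPM against 4.35 (1.90), and Spred3 at 208 CPM against 63.6 (1.70), which differs from the small changes of Spred1 and Spred2. Dusp9, a cytoplasmic phosphatase like Dusp6, was at 7.26 CPM against 37.4 (-2.29, -2.58 to -2.15), in total RNA the direction opposite to Dusp6. In precipitated RNA of the same cells Dusp9 lay on the other side of DMSO, at 0.79 (0.44 to 1.25) with J2 and 0.87 (0.52 to 1.41) with Z22, relative to all genes. There the list medians lay near 0, at 0.09 with J2 and -0.08 with Z22 after ADAR1i-124, and at 0.09 and -0.13 after 5-AZA-CdR. With Z22 after ADAR1i-124, 1 of 17 relatives was over 2-fold higher and 4 lower, beside 17.6% and 17.5% of all genes. Dusp1 was among the lower ones, at -1.39 (-1.59 to -1.22), and was at 0.34 with J2.

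In total RNA, other genes known to respond to ERK were mostly higher with either agent. Their list too was chosen with earlier results of these data known, so its counts are descriptive. With ADAR1i-124, 7 of 10 were over 2-fold higher and 0 lower, beside 7.71% and 8.70% of all genes, with a list median of 1.14. Egr1, an immediate early transcription factor, was at 83.7 CPM against 7.52 with DMSO (log2 change 3.39). Plaur, the urokinase receptor, was at 392 CPM against 43.4 (3.16), and Fosl1, which encodes the AP-1 subunit FRA1, at 349 CPM against 53.1 (2.71). Epha4, an ephrin receptor, was at 2.33 CPM against 0.71 (1.23), a difference of 41 and 12 counts. With 5-AZA-CdR, 6 of 10 were higher and 0 lower, beside 17.0% and 8.96% of all genes, with a list median of 1.20. Egr1 was at 113 CPM (3.82), Ier3, an early response gene, at 522 CPM against 126 (2.04), Fosl1 at 177 CPM (1.73) and Plaur at 137 CPM (1.65). In precipitated RNA, where changes are given relative to the median of all genes, the list was mixed. With J2, 0 of 10 were over 2-fold higher or lower after ADAR1i-124 (list median -0.10). After 5-AZA-CdR, 4 of 10 were higher with J2 and 0 lower, beside 7.81% and 6.60% of all genes (list median 0.17). With Z22, 0 were higher and 3 lower after ADAR1i-124, beside 17.6% and 17.5% of all genes (list median -0.44). After 5-AZA-CdR, 1 was higher and 3 lower with Z22, beside 18.4% and 19.3% (list median -0.46). Egr1 was at 1.26 (1.10 to 1.45) with J2 and 5-AZA-CdR, and at -3.02 and -2.42 with Z22 after ADAR1i-124 and after 5-AZA-CdR.

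**Figure D3:**
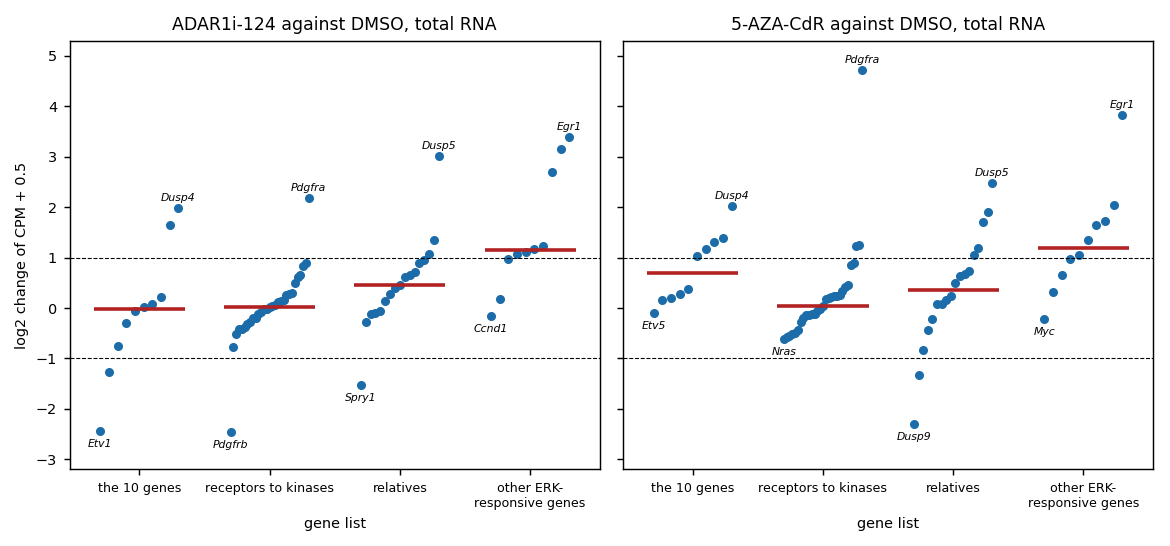
log2 change in total RNA against DMSO (y axis) of every gene that passed the filter in 4 lists (x axis), with ADAR1i-124 on the left and 5-AZA-CdR on the right, where each point is 1 gene and the red line the list's median. The medians with ADAR1i-124 are -0.02 for the 10 genes and 1.14 for the other ERK-responsive genes, and with 5-AZA-CdR they are 0.70 and 1.20, and the dashed lines mark 2-fold.

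In precipitated RNA the changes are given relative to the median change of all genes tested, because the make-up of these libraries differed. That median was 0.00 to 0.11 on the log2 scale for the J2 comparisons with DMSO and 0.81 to 1.06 for those of Z22. The Z22 library of DMSO cells stood apart from the rest. The single gene Gm42418 took 34.9% of its counts, against 10.6% to 15.8% in the other Z22 libraries and 14.2% in IgG. Of the 10 genes, Dusp6, Spry2, Spred1, Spred2 and Etv1 had their lowest level of all 12 libraries in it. Its part in the Z22 results was not tested, and comparisons of Z22 libraries that do not use it are given beside those that do. In J2 libraries the fibroblast markers summed to 49.4 CPM with DMSO and 4.58 to 37.8 CPM with treatment, and in Z22 libraries to 79.2 CPM with DMSO and 14.7 to 38.0 CPM. Of the sums with DMSO, Pdgfra made 43.2 CPM with J2 and Col1a1 made 66.8 CPM with Z22. The endothelial markers summed to 3.54 to 61.6 CPM with J2 and to 4.23 to 31.5 CPM with Z22, highest with 5-AZA-CdR, and the epithelial markers to 16.9 CPM at most.

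With J2, 5-AZA-CdR gave higher levels for several of the feedback genes and ADAR1i-124 for none past 2-fold. With ADAR1i-124, 0 of the 10 were past the line in either direction, beside 7.37% of 13522 genes higher and 10.8% lower, and the median change of the 10 was 0.06. With 5-AZA-CdR, 4 were higher and 0 lower, beside 7.81% and 6.60% of 14007 genes, with a median of 0.47. With the combination, 3 were higher and 0 lower, beside 6.97% and 4.92% of 14158 genes, with a median of 0.48. The counting interval of Spry2 crossed the 2-fold line with 5-AZA-CdR and with the combination. Those of Spred1 and Phlda1 crossed it with 5-AZA-CdR. Set against 5-AZA-CdR alone, the combination gave a median difference of 0.00 in J2 RNA, and the 10 genes lay between -0.34 and 0.30.

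Dusp6 had the highest log2 change of the 10 in J2 RNA after either single agent, and Phlda1 after both. After ADAR1i-124 the counting interval of Dusp6 overlapped those of Etv4 and Spred1. After both, that of Phlda1 overlapped those of Dusp6 and Spry2. In J2 libraries Dusp6 was at 60.7 CPM in the DMSO library, 89.2 after ADAR1i-124, 184 after 5-AZA-CdR and 158 after both. Its log2 changes were 0.55 (0.42 to 0.69), 1.53 (1.42 to 1.66) and 1.27 (1.15 to 1.40). Dusp4 was at 43.1, 35.8, 66.0 and 77.9 CPM in the same order, with changes of -0.26, 0.55 and 0.74, none of them near the size seen in total RNA. Spry2 was at 29.3, 33.8, 64.2 and 64.1 CPM, with changes of 0.20, 1.06 and 1.01. Spry4 was at 66.6, 38.5, 67.7 and 73.0 CPM, with changes of -0.78 (-0.95 to -0.63), -0.04 and 0.03. Spry2 and Spry4, alike in total RNA, thus differed here by more than their counting intervals under every treatment.

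Spred1 was at 96.9 CPM in J2 RNA of DMSO cells, 138 after ADAR1i-124, 206 after 5-AZA-CdR and 169 after both, with changes of 0.50, 1.03 (0.93 to 1.13) and 0.69. Spred2 stayed between 55.3 and 77.4 CPM. Etv1 was at 73.4 CPM in DMSO cells, 58.1 after ADAR1i-124, 61.1 after 5-AZA-CdR and 65.5 after both, with changes of -0.34, -0.32 and -0.27, so that the low level in total RNA with ADAR1i-124 had no counterpart of that size here. Etv4 stayed between 37.4 and 53.6 CPM and Etv5 between 29.8 and 38.1 CPM. Phlda1 was at 25.9, 29.0, 54.8 and 69.9 CPM, with changes of 0.16, 1.01 (0.83 to 1.22) and 1.31 (1.14 to 1.52). Phlda1 in J2 RNA was near its DMSO level with ADAR1i-124 although its total RNA level was over 3-fold higher.

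With Z22 the comparisons with DMSO spread widely for all genes. With ADAR1i-124, 3 of the 10 were over 2-fold higher and 1 lower, beside 17.6% and 17.5% of 12799 genes, with a median of 0.04. With 5-AZA-CdR, 2 were higher and 1 lower, beside 18.4% and 19.3% of 13716 genes, with a median of 0.17. With the combination, 3 were higher and 2 lower, beside 18.1% and 17.6% of 13276 genes, with a median of 0.61. Dusp6 and Etv1 were past the line upwards, and Phlda1 downwards, in all 3 comparisons, which share the Z22 library of DMSO cells. The counting intervals of Dusp6 and Spred1 with ADAR1i-124, of Etv1 in all 3 and of Phlda1 with the combination crossed the line. Without centring, 4 genes were higher and 1 lower with ADAR1i-124, beside 42.9% and 5.13% of all genes. With 5-AZA-CdR, 6 were then higher (Dusp4, Dusp6, Spry2, Spred1, Spred2 and Etv1) and 1 lower, beside 52.1% and 4.10%, and with the combination the same 6 were higher and 0 lower, beside 43.4% and 5.03%.

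Dusp6 was at 18.9 CPM in Z22 RNA of DMSO cells, 70.2 after ADAR1i-124, 114 after 5-AZA-CdR and 122 after both. Its log2 changes were 1.05 (0.84 to 1.33), 1.51 (1.30 to 1.79) and 1.84 (1.64 to 2.12). Spred1 was at 27.4, 108, 111 and 145 CPM, with changes of 1.15, 0.94 and 1.56. Etv1 was at 13.3, 56.4, 57.2 and 56.2 CPM, with changes of 1.23, 1.0 and 1.22. All 3 genes were thus lowest in the DMSO library. Etv1 was nearly level in the treated ones, whereas Dusp6 was lowest of these after ADAR1i-124.

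Phlda1 went the other way. It was at 97.5 CPM in Z22 RNA of DMSO cells, 40.2 after ADAR1i-124, 46.3 after 5-AZA-CdR and 84.2 after both. Relative to all genes it was 4.23-fold lower with ADAR1i-124 (log2 change -2.08, -2.24 to -1.94), 4.37-fold lower with 5-AZA-CdR (-2.13, -2.31 to -1.96) and 2.04-fold lower with the combination (-1.03, -1.17 to -0.89). Etv4 was at 62.9, 68.8, 75.4 and 48.2 CPM, with changes of -0.68, -0.80 and -1.20. Etv5 stayed between 34.9 and 42.5 CPM. For Etv5 the CPM was thus nearly level, and its changes of -0.63 to -0.90 came with the shift of the other genes. Dusp4 was at 26.8, 51.7, 65.9 and 95.9 CPM, with changes of 0.12, 0.22 and 1.0, the last just under the line. Spry2 was at 17.8, 30.6, 40.9 and 55.4 CPM, Spry4 at 43.8, 55.2, 67.8 and 81.1 CPM, and Spred2 at 36.3, 82.9, 93.8 and 87.4 CPM, and the changes of these 3 lay between -0.48 and 0.80.

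**Figure D4:**
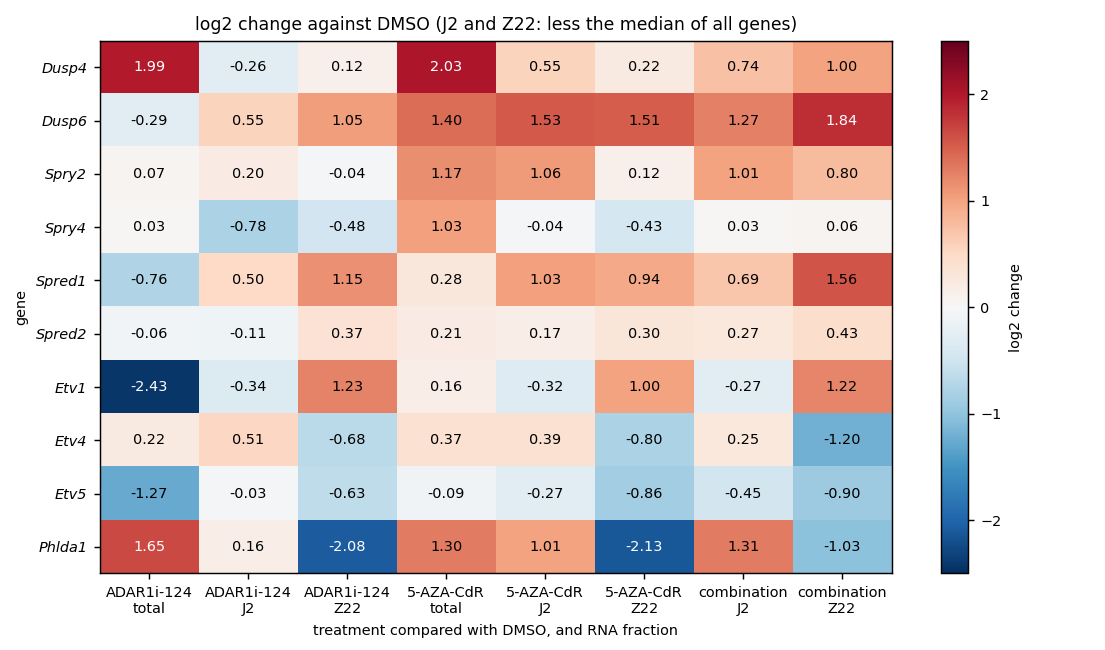
log2 change against DMSO of the 10 genes (rows) for each treatment and RNA fraction (columns), where red is higher and blue lower, J2 and Z22 values are relative to the median of all genes, and each cell is 1 pair of libraries. Dusp6 is at 1.27 or more in all 5 columns with 5-AZA-CdR or the combination, and Phlda1 is at 1.30 in total RNA and -2.13 in Z22 RNA with 5-AZA-CdR.

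Comparisons without the Z22 library of DMSO cells were narrower. Z22 RNA of 5-AZA-CdR cells against ADAR1i-124 cells gave a median of 0.01 for the 10 genes, from -0.16 for Etv5 to 0.53 for Dusp6 (0.40 to 0.66), and Phlda1 was at 0.03 and Spred1 at -0.14. The same contrast with J2 gave a median of 0.67, from -0.21 for Etv5 to 1.01 for Dusp6 (0.92 to 1.11). Dusp4, Dusp6, Spry2, Spry4 and Spred2 were above 0 in this contrast in total, J2 and Z22 RNA alike, as were 28.3% of the 12987 genes tested in all 3. The counting intervals of Dusp4 in total RNA (-0.04 to 0.12), Spry4 with Z22 (-0.04 to 0.28) and Spred2 with Z22 (-0.13 to 0.13) included 0. Dusp4 in total RNA turned below 0 under TMM (-0.07), under DESeq2 size factors (-0.10) and when centred on all genes (-0.09), and Spred2 with Z22 did so under 5 settings. Dusp6 was at 1.69, 1.01 and 0.53. Etv1, at 2.59 in total RNA, was at 0.05 with J2 and -0.16 with Z22. The combination against 5-AZA-CdR with Z22 had a median of 0.36, with Phlda1 highest at 1.04 (0.87 to 1.23), Dusp4 at 0.72 and Spry2 at 0.62. The combination against ADAR1i-124 with Z22 had a median of 0.49, with Phlda1 again highest at 1.06 (0.91 to 1.22) and Dusp4 at 0.88. Etv4 was lowest in each of these contrasts with the combination, at -0.46 against 5-AZA-CdR and -0.51 against ADAR1i-124.

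Across fractions, 5 of the 10 genes (Dusp4, Dusp6, Spry2, Spred1 and Spred2) had a change above 0 with 5-AZA-CdR in total, J2 and Z22 RNA alike, and so did 15.6% of the 12951 genes tested in all 3, when total RNA was taken as measured and J2 and Z22 less the median of all genes. Etv5 alone was below 0 in all 3, as were 14.7% of those genes. Of these values, the intervals of Etv5 in total RNA (-0.18 to 0.00) and of Spry2 with Z22 (-0.14 to 0.43) included 0. With ADAR1i-124, 0 of the 10 were above 0 in all 3 fractions, beside 14.0% of 12344 genes, and Etv5 was again the gene below 0 in all 3, beside 17.2%. Its changes with ADAR1i-124 were -1.27 in total RNA, -0.03 with J2, an interval that included 0, and -0.63 with Z22. These counts turned without centring. Then 7 genes (the same 5 with Spry4 and Etv4) were above 0 in all 3 with 5-AZA-CdR, beside 24.8% of genes, and 2 (Spry2 and Etv4) with ADAR1i-124, beside 20.2%. None of the 10 was then below 0 in all 3, beside 5.79% and 8.85% of genes, and Etv5 with Z22 was at 0.20 and 0.18.

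Against the IgG library the median of the 10 genes stayed near that of all genes. Their median log2 ratio, relative to that of all genes, was -0.01 for J2 with DMSO, -0.21 after ADAR1i-124, 0.34 after 5-AZA-CdR and 0.34 after both. For Z22 it was 0.11, 0.13, 0.15 and 0.36. Phlda1 was the highest of the 10 in all 4 Z22 libraries, at 2.80 with DMSO, 0.75 after ADAR1i-124, 0.73 after 5-AZA-CdR and 1.75 after both. With J2 it was also the highest after ADAR1i-124 (0.25), 5-AZA-CdR (1.10) and both (1.37), but not with DMSO (0.09). In IgG it was at 24.5 CPM, its lowest level. Dusp6, at 106 CPM in IgG, was at -1.63 in the Z22 library of DMSO cells and between -0.55 and 0.20 in the other 3. Spred1, at 167 CPM in IgG, was below 0 in all 4 Z22 libraries, at -1.76 to -0.21. Against total RNA of the same treatment the J2 medians were -0.61 with DMSO, -0.26 after ADAR1i-124 and -0.69 after 5-AZA-CdR, with 7, 5 and 9 of the 10 genes below 0. The Z22 medians were 0.09, -0.14 and -0.84, with 5, 6 and 10 genes below 0. Since the treatment behind the IgG library is not stated, these ratios mix antibody and treatment for any gene that changes with treatment.

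Dusp6, often used as a readout of ERK activity, was compared with 8571 protein-coding genes of at least 10 CPM on average over the 12 libraries. The measure of likeness was the root-mean-square difference of log2 CPM profiles after each was centred on its own mean. Most like it were Rnf149 at 0.22, Ginm1 and Hacd3 at 0.26 each, and Rgs17 and Casp6 at 0.26 each. All 5 had their lowest level in the Z22 library of DMSO cells (4.1 to 6.4 CPM), as did Dusp6. The part of that library in the ranks was not tested. Rnf149, for example, was at 26.9 CPM with DMSO, 30.8 with ADAR1i-124 and 59.2 with 5-AZA-CdR in total RNA, and at 4.58 CPM in the Z22 library of DMSO cells. Among the 10 genes, Spred1 ranked 87th at 0.42 and Spry2 88th at 0.42. Spred2, Etv1, Spry4 and Dusp4 ranked between 2255th and 2382nd, and Etv5, Etv4 and Phlda1 between 5529th and 7620th. The spread between the highest and lowest of the 12 libraries was 15.5-fold for Etv1 and 13.0-fold for Dusp6, and 3.01-fold for Etv5, the smallest of the 10. Etv1 and Dusp6 were lowest in the Z22 library of DMSO cells, which stood apart, and Etv5 in the J2 library of the combination.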

How the data were processed

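YUMM1.7 total RNA, and RNA precipitated with J2, Z22 or IgG, was sequenced after ribosomal RNA depletion, 1 library per condition. The study's methods name STAR within snakePipes and the mouse mm10 build. The counting tool and its strand setting are not given in the sources used here. The authors deposited raw read counts per gene, with no normalization. Symbols came from GENCODE for GRCm38. From the counts, CPM was computed on each library's total, and log2 changes with a pseudocount of 0.5 CPM over genes averaging 1 CPM or more in the libraries compared. Changes in precipitated RNA were taken less the median of all genes tested. Intervals are exact binomial (Clopper-Pearson) 95% intervals of each pair of counts without the pseudocount, and exact Poisson intervals for levels. Python 3.11.15 with pandas 2.3.3 and scipy 1.17.1 was used, with edgeR 4.0.16 and DESeq2 1.42.0 for scaling factors alone. No model was fitted, since no condition had replicates. Totals of 8167960 to 34571822 counts set a limit of 0.0868 to 0.367 CPM for a count of 0. The calculation was tested on simulated counts. The 10 genes and the lists were chosen with earlier results of these data known. Named were all 10 genes, at most 4 genes past 2-fold per list and total RNA comparison, the cell line and cell type markers (1 of them is not reported here), and the 5 genes most like Dusp6. Gm42418, Gm28592, Spry1 with 5-AZA-CdR, the comparisons of 5-AZA-CdR with ADAR1i-124 in precipitated RNA and the counts across fractions without centring were added after the values were seen. The alternatives tried were other scalings, pseudocounts, filters, lines and references.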

Additional observations from a re-analysis of the deposited data

Results flagged for a closer look

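Several of the 10 genes lay on opposite sides of DMSO in total and precipitated RNA under the same treatment. The larger of these differences are listed here, picked out because the signs differed. Smaller ones are left out, such as Dusp6 with ADAR1i-124 in total RNA and J2 (-0.29 and 0.55). No difference was tested, since each rests on 4 single libraries. With ADAR1i-124, the log2 change of Dusp4 in total RNA exceeded that with J2 by 2.25 (1.99 and -0.26), and that of Spred1 differed by -1.26 (-0.76 and 0.50). Between total RNA and Z22, the differences with ADAR1i-124 were -1.35 for Dusp6 (-0.29 and 1.05), -1.90 for Spred1 (-0.76 and 1.15), -3.67 for Etv1 (-2.43 and 1.23) and 3.73 for Phlda1 (1.65 and -2.08). With 5-AZA-CdR, the differences between total RNA and Z22 were 1.46 for Spry4 (1.03 and -0.43), 1.18 for Etv4 (0.37 and -0.80) and 3.43 for Phlda1 (1.30 and -2.13). Changes in total RNA are as measured, whereas those with J2 and Z22 are less the median of all genes. For Spry4 and Etv4 with 5-AZA-CdR the opposite sign came from that subtraction, because without it their Z22 changes were 0.63 and 0.26, on the same side as in total RNA. All 7 differences that involve Z22 use the Z22 library of DMSO cells, in which Gm42418 took 34.9% of the counts.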

How the results depend on the processing

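The medians were recomputed under other scalings, pseudocounts, filters, references and centring, and 136 of the recomputed values stayed between the second lowest and the second highest gene value behind the original median, a wide allowance, while 2 left it. Without centring, the median with Z22 and 5-AZA-CdR against DMSO was 1.23 in place of 0.17, and with ADAR1i-124 and the combination it was 0.85 and 1.43. For the ratios to IgG, each gene was averaged over the 4 libraries of an antibody before the median was taken. With total RNA as the reference, over 3 libraries, that median was -0.44 in place of 0.06 for J2 and -0.20 in place of 0.26 for Z22. Over the other alternatives of total RNA, the medians ran from -0.02 to 0.08 for ADAR1i-124 and from 0.63 to 0.74 for 5-AZA-CdR. Of the values of single genes, 1151 kept their side of the 2-fold line, 35 no longer passed it and 14 newly passed it. The sign turned for 34 values, 0 of them originally past the line, and 16 of these turned with the change of centring. The latter include Etv4, Etv5 and Spry4 with Z22, which were above the DMSO level without centring after ADAR1i-124 (0.13, 0.18 and 0.33) and after 5-AZA-CdR (0.26, 0.20 and 0.63). At a 4-fold line, 0 of the 10 genes were higher and 1 lower with ADAR1i-124 in total RNA, beside 1.88% and 2.05% of all genes, and 1 higher and 0 lower with 5-AZA-CdR, beside 5.98% and 1.76%. With Z22 and the combination, no filter on low values gave 5 genes higher and 0 lower, beside 16.1% and 9.15% of all genes, in place of 3 and 2. Comparisons with DMSO could not be blocked by replicate, since each condition within a kind of RNA had 1 library, and for the same reason no library could be left out of a group. The J2 and Z22 libraries share 4 treatments, and a contrast paired over them was not made here. Depth limits none of the 10 genes, but single libraries leave the spread between cultures unknown.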

Other observations

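In the combination's total RNA library, which was used in no comparison, Phlda1 had 6 counts and Gm28592, annotated on the opposite strand within it, had 529. In the other 12 libraries Gm28592 had 0 to 4 counts. Etv4 had 50 counts there, the most of the 10 genes, and Dusp4 had 9.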
